A study of Mus musculus with 9 samples.

Results

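The 10 genes described here are core regulators of the step from G1 into S phase. They comprise the CDK inhibitors Cdkn1a, Cdkn1b, Cdkn2c and Cdkn2d, the D-type cyclins Ccnd1, Ccnd2 and Ccnd3, the kinases Cdk4 and Cdk6, and the retinoblastoma gene Rb1. They were chosen by name, as regulators of how hematopoietic stem cells (HSCs) leave quiescence, and all 10 were found among the 47643 genes of the count table. RNA was measured in 9 libraries of sorted mouse long-term HSCs, 3 from each of 3 genotypes.

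All donors were on the C57BL/6 strain. TKO donors were Pik3ca lox/lox, Pik3cb lox/lox and Pik3cd-/- with Mx1-Cre, so that all class IA catalytic isoforms of PI3K were targeted. δKO donors were littermates with the same floxed alleles and the same germline Pik3cd deletion, but without Cre. WT donors carried Mx1-Cre and were otherwise labelled wild type. δKO and WT libraries therefore differed in Pik3cd, in the floxed alleles and in Cre at once, and these cannot be told apart. Whole marrow of each genotype was transplanted without competitors into lethally irradiated mice, and every recipient, of all 3 genotypes, received 250 μg of pIpC 2 times, 48 h apart. pIpC induces interferon, which switches on Mx1-Cre throughout the blood system and in other interferon-responsive cells. Marrow was taken 4 weeks later, and donor-derived Lin- cKit+ Sca1+ Flk2- CD48- CD150+ cells were sorted. The labels call the 3 samples of a genotype biological replicates, each run 2 times, yet they also say that the marrow of all 7 recipients of a group was pooled. The p-values below therefore measure the spread between these samples, which may be partly technical.

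Cells enter the cycle when D-type cyclins, whose levels follow mitogen and cytokine signals, bind CDK4 or CDK6 and phosphorylate the retinoblastoma protein. Phosphorylation frees E2F factors to transcribe the genes of DNA replication. The INK4 inhibitors, to which p18 (Cdkn2c) and p19 (Cdkn2d) belong, bind CDK4 and CDK6 and keep cyclin D away. The CIP/KIP inhibitors p21 (Cdkn1a) and p27 (Cdkn1b) act mainly on cyclin-CDK2 complexes. In HSCs, CDK6 is known for setting how fast a resting cell can re-enter the cycle, and PI3K-AKT signalling is known to restrain FoxO factors and p27.

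Library totals ran from 31300343 to 60386097 counts, with 18180 to 22703 genes detected. The HSC markers Kit, Ly6a, Slamf1, Procr, Mecom, Hlf and Fgd5 had counts in every library, and over a list of 8 such markers, these among them, 5 were higher in TKO than in WT without overlap (6.88% of all genes were) and none lower, with summed levels of 1576 to 1954 CPM in TKO and 1184 to 1368 CPM in WT. Against δKO, whose sums of 1119 to 2466 CPM enclosed those of TKO, 2 of the 8 were higher in TKO without overlap (6.98% of all genes) and 2 had lower means. Of 6 T cell genes, Cd3e, Cd3g and Cd8a had no count in any library, whereas Cd3d reached 8.17 CPM in TKO replicate 1 and Lck 51.4 CPM in δKO replicate 1. The summed T cell level was 1.32 to 51.6 CPM. Levels are given as CPM, the counts of a gene relative to the library total scaled by TMM factors. Of the sort's negative markers, Flt3 (which encodes Flk2) was at 7.06 to 115 CPM and overlapped between genotypes, whereas Cd48 was lower in all 3 TKO libraries (9.66 to 13.96 CPM) than in all 3 WT libraries (18.3 to 23.2 CPM), as 7.47% of all genes were, with δKO at 5.82 to 21.1 CPM. Of the targeted genes, Pik3cb averaged 30.96 CPM in TKO libraries and 56.2 in WT libraries and Pik3cd 72.6 against 116, whereas Pik3ca was at 60.2 against 57.1 (edgeR adjusted p = 1.00 for each). In δKO libraries, with the same germline Pik3cd deletion, Pik3cd averaged 66.9 CPM, Pik3cb 67.7 CPM and Pik3ca 59.2 CPM. The log2 fold changes of TKO against δKO were 0.12 for Pik3cd and -1.13 for Pik3cb (edgeR adjusted p = 0.925 and 0.465). Counts over a whole gene do not tell whether the floxed exons of Pik3ca and Pik3cb were lost.

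The gene of this set that set TKO libraries apart was Cdk6. Its level was lower in all 3 TKO libraries than in all 6 others, at 0.629 times the WT level, a pattern that 1.69% of all genes tested shared, and the difference did not pass the test once all genes were counted. Cdkn2c was also lower in all 3 TKO libraries than in all 3 WT libraries, at 0.3 times their level (7.47% of all genes were lower in TKO than in WT without overlap), but the δKO libraries scattered on both sides. The remaining 8 genes overlapped between all genotypes. No member passed the threshold of an adjusted p under 0.05 with a change over 2-fold in any of the 3 comparisons by edgeR, which called 0.00549% of all genes in TKO against WT, 0% in TKO against δKO and 0.00549% in δKO against WT, so that this count says little about the 10 genes.

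**Figure D1:**
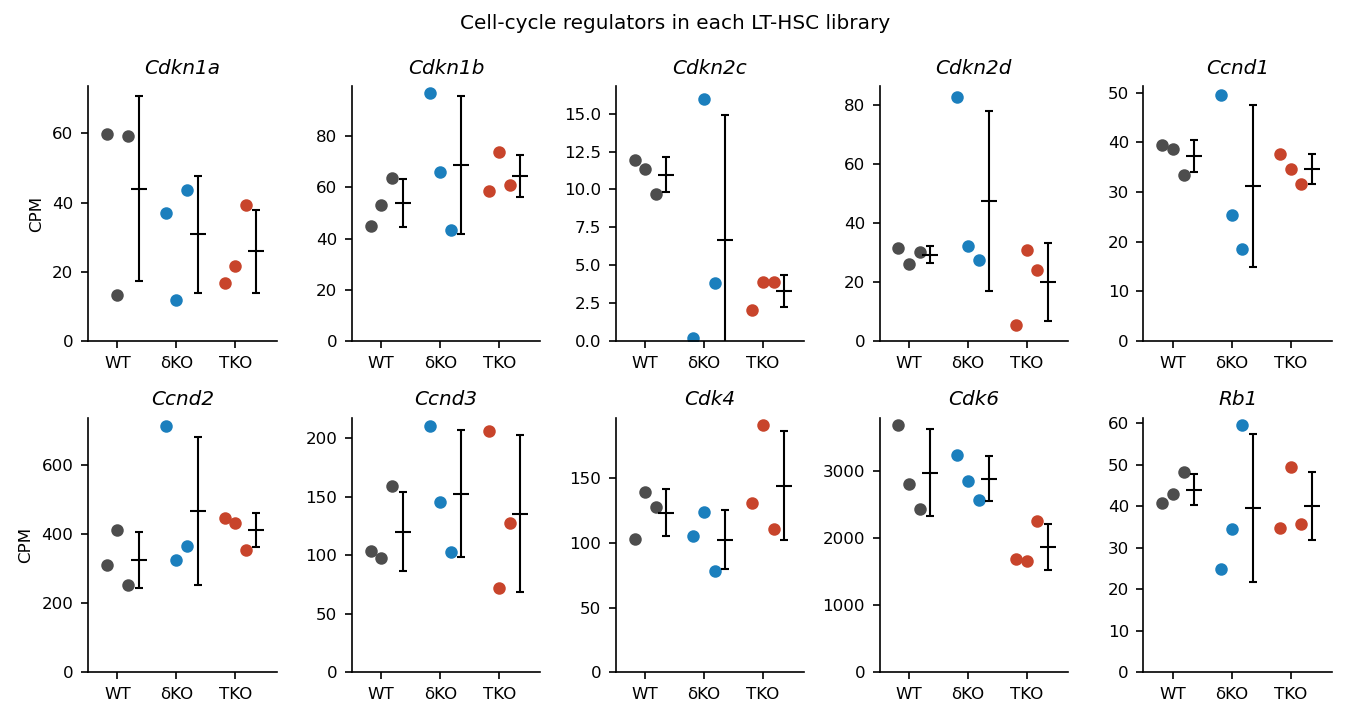
CPM (y axis, from 0) of each of the 10 genes in each library, with WT in grey, δKO in blue and TKO in red. Points are libraries, and bars beside them are the mean ± SD of 3 libraries (the lower end is not drawn below 0). Cdk6 is the 1 panel in which the 3 TKO points, at 1658 to 2257 CPM, lie below all other points.

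Sequences upstream of RefSeq starts of Cdk4 and Cdk6 are shown because TKO libraries lay below the others in Cdk6 and not in its partner kinase Cdk4, and because the Cdk4 window held more copies of the E-box than nearly all promoters. The Cdk6 window held a single copy. RefSeq promoter windows on GRCm38.p6, from 250 bases before to 50 bases after each start, were given for 7 of the 10 genes (10 windows). The 3 others were Ccnd1, Ccnd2 and Rb1. Both strands were searched. The E-box, the site of MYC family and related factors, was taken as CACGTG, which reads the same on both strands and was counted once. The FoxO motif was taken as GTAAACA and the E2F motif as TTTCGCGC or as TTTGGCGC. GGGCGG stood for the GC box and CCAAT for the CCAAT box, and none of these words contains another. In the lines that follow, capitals mark E-boxes.
Cdk4, chr10:127063351-127063533, + strand: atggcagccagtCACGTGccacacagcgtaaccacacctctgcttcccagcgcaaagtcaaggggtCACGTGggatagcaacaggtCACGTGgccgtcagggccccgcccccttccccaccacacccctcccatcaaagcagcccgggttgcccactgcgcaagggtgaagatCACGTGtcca
Cdk6, chr5:3343661-3343690, + strand: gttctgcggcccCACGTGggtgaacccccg
The Cdk4 stretch lies before the annotated gene, whereas the Cdk6 stretch lies inside the annotated gene, upstream of an internal start that RefSeq gives. Neither stretch overlaps an annotated exon. The Cdk4 window held 4 E-boxes, beginning 172, 118, 98 and 11 bases before the start. Of all 32851 windows, 7.15% held at least 1 E-box and 0.0244% (8 windows) held at least 4. The copy in the Cdk6 window began 220 bases before the start, and 1 more among the members lay in the second of the Cdkn2c windows. A FoxO motif, found in 3.65% of all windows, was in 1 of the 10 member windows, at the distal Ccnd3 start. None of the 10 held an E2F word, which 0.813% of all windows did. GC boxes were in 7 of the 10 member windows and in 35.7% of all windows, and CCAAT in 4 of 10 and in 37.4%. A match is a description of the letters and not of a bound site.

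Of the inhibitors, Cdkn1a, chr17:29090976-29100727 on the + strand, encodes p21, which p53 induces. Its level was 59.7, 13.1 and 59.1 CPM in WT replicates 1, 2 and 3, 37.0, 11.7 and 43.6 CPM in δKO replicates 1 and 2 and the unnumbered δKO library, and 16.8, 21.5 and 39.4 CPM in TKO replicates 1, 2 and 3. The lowest library of all was a δKO library, WT replicate 2 lay close to it, and the genotypes overlapped fully. The TKO mean of 25.9 ± 11.9 CPM (SD, n = 3) against 44.0 ± 26.7 CPM in WT gave a log2 fold change of -0.76 (SE 0.62; edgeR adjusted p = 1.00). Against δKO the log2 fold change was -0.25 (SE 0.62; edgeR adjusted p = 0.917).

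Cdkn1b, chr6:134920401-134925513 on the + strand, encodes p27, the CDK2 inhibitor that AKT signalling and the SCF-Skp2 ligase lower. It was at 44.7, 53.3 and 63.7 CPM in the WT libraries, 96.8, 65.9 and 43.2 CPM in the δKO libraries and 58.5, 73.9 and 61.0 CPM in the TKO libraries, in the same order of libraries as above. The TKO values lay within the span of the δKO values and 2 of them below the highest WT value. Log2 fold changes were 0.26 for TKO against WT and -0.09 for TKO against δKO, each with an SE of 0.32 (edgeR adjusted p = 1.00 and 0.947).

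Cdkn2c, chr4:109660876-109667189 on the - strand, encodes p18, an INK4 inhibitor known to limit HSC self-renewal. The WT libraries held 710, 599 and 405 counts, or 11.9, 11.4 and 9.67 CPM. The δKO libraries held 5, 896 and 104 counts (0.199, 15.96 and 3.83 CPM), and the TKO libraries 107, 135 and 184 counts (2.05, 3.92 and 3.90 CPM). WT libraries were close together, TKO libraries were all below them, and the δKO libraries held both the lowest and the highest value of the 9. The TKO mean was 3.29 ± 1.08 CPM against 10.99 ± 1.17 CPM in WT (SD, n = 3), a log2 fold change of -1.74 (SE 1.07; edgeR adjusted p = 1.00).

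Whether Cdkn2c was called depended on the test. DESeq2 on the 6 WT and TKO libraries alone gave a log2 fold change of -1.73 with an adjusted p of 0.00225, the only member value past the threshold in any alternative. With all 9 libraries in the fit the DESeq2 adjusted p was 0.759, and edgeR on the 6 libraries gave an adjusted p of 0.326. In the exact permutation test of TKO against WT the two-sided p was 0.1, the smallest that 3 against 3 libraries allow. Neutrophil granule genes were low in TKO libraries as well, and Cd48 was below WT in the same 3 libraries. The summed level of 10 of them (such as S100a8, Ltf and Mpo) was 5555 to 12868 CPM in WT libraries and 169.5 to 3413 CPM in TKO libraries, all 10 had lower means in TKO, and 4 of the 10 did not overlap (7.47% of all genes were lower in TKO without overlap). In δKO replicate 1, with 5 counts of Cdkn2c, the sum was 277 CPM, in δKO replicate 2, with 896, it was 5030 CPM, and in the unnumbered δKO library, with 104, it was 12803 CPM. Different genes made up the sum in different libraries. Mpo and Elane gave most of it in WT replicate 1 (8958 and 2306 CPM) and the unnumbered δKO library (7226 and 2529 CPM). In WT replicate 3, Ngp and S100a9 were the largest (3844 and 1974 CPM). Of the genes named, Ltf and Mpo overlapped between TKO and WT. The part of cells that express these genes, or of Cd48+ cells, in the Cdkn2c values was not tested. In bulk samples, fewer cells of a type and less RNA per cell cannot be told apart.

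Cdkn2d, chr9:21288410-21291407 on the - strand, encodes p19, the other INK4 inhibitor of the set. It was at 31.5, 26.1 and 30.0 CPM in WT, 82.5, 32.2 and 27.4 CPM in δKO and 5.35, 30.8 and 24.0 CPM in TKO libraries. TKO replicate 1 was far below and δKO replicate 1 far above the other 7, which lay between 24.0 and 32.2 CPM. The log2 fold change of TKO against δKO was -1.24 (SE 0.60; edgeR adjusted p = 0.503), and of TKO against WT -0.54 (SE 0.59; edgeR adjusted p = 1.00). Without TKO replicate 1 the value against WT was -0.10, and without δKO replicate 1 the value against δKO was -0.58.

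Among the D-type cyclins, Ccnd2 was the most abundant in every library. Ccnd2, chr6:127125162-127152193 on the - strand, was at 310.4, 412 and 252 CPM in WT, 714, 324 and 366 CPM in δKO and 448, 433 and 355 CPM in TKO libraries. All 3 TKO values exceeded 2 of the 3 WT values, and δKO replicate 1 stood above all. The log2 fold changes were 0.34 for TKO against WT and -0.18 for TKO against δKO, each with an SE of 0.31 (edgeR adjusted p = 1.00 and 0.871).

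Ccnd3, chr17:47505051-47599691 on the + strand, encodes the cyclin D known for its part in lymphoid and erythroid precursors. Its levels were 104, 98.1 and 159 CPM in WT, 211, 145 and 103 CPM in δKO and 206, 72.5 and 128 CPM in TKO libraries. TKO libraries held both the lowest and the second-highest value, and the log2 fold change against WT was 0.17 (SE 0.39; edgeR adjusted p = 1.00). Ccnd1, chr7:144929931-144939925 on the - strand, was at 39.4, 38.6 and 33.5 CPM in WT, 49.6, 25.4 and 18.5 CPM in δKO and 37.7, 34.7 and 31.7 CPM in TKO libraries. WT and TKO levels of Ccnd1 lay within a narrow band that the δKO values straddled. Its log2 fold change for TKO against WT was -0.10, with an approximate 95% interval from -0.94 to 0.74 (edgeR adjusted p = 1.00).

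Cdk6, chr5:3341485-3531008 on the + strand, was the most abundant of the 10 genes and, by mean CPM, ranked 15 of 18205 genes tested in WT, 19 in δKO and 21 in TKO. It was at 3682, 2798 and 2425 CPM in WT libraries, 3234, 2842 and 2565 CPM in δKO libraries, and 1684, 1658 and 2257 CPM in TKO libraries. The highest TKO library was below the lowest of the other 6, while WT and δKO overlapped closely. The WT libraries averaged 2968 ± 646 CPM, the δKO libraries 2880 ± 336 CPM and the TKO libraries 1866 ± 339 CPM (SD, n = 3). Cdk6 in TKO was 0.629 times the WT level (log2 fold change -0.67, SE 0.23, approximate 95% interval -1.17 to -0.17; edgeR adjusted p = 1.00) and 0.648 times the δKO level (-0.63, SE 0.23, interval -1.13 to -0.13; edgeR adjusted p = 0.465). For δKO against WT the log2 fold change was -0.04, with an interval from -0.54 to 0.45 (edgeR adjusted p = 0.986).

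Before adjustment, edgeR gave a p of 0.013 against WT and 0.018 against δKO (adjusted p = 1.00 and 0.465, as above). The direction held in each of 18 alternatives against WT, with log2 fold changes from -0.83 to -0.49, and in each of 18 against δKO, from -0.78 to -0.47. Unadjusted p was under 0.05 in 17 and 15 of the 18. The lowest adjusted p of any alternative was 0.159 against WT (DESeq2 on the groups compared) and 0.186 against δKO (DESeq2 on all libraries). The alternatives reuse the same libraries and the 2 comparisons share the TKO libraries, so these counts are not independent support. Without WT replicate 1, the library with most Cdk6, the value against WT was -0.49. Of all genes tested, 1.69% were lower in the 3 TKO libraries than in all 6 others without overlap.

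**Figure D2:**
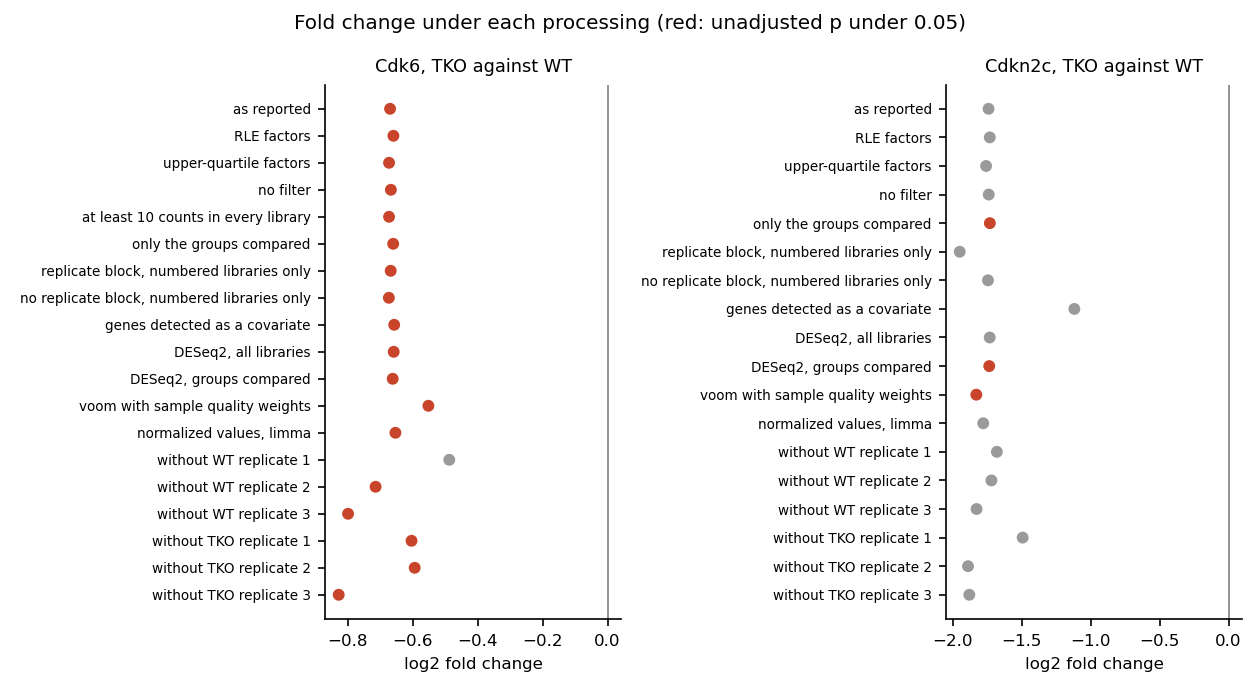
Log2 fold change of TKO against WT (x axis) for Cdk6 (left) and Cdkn2c (right) as reported and under each alternative processing (rows), with points in red where the unadjusted p was under 0.05. Cdk6 stays between -0.83 and -0.49, and Cdkn2c between -1.95 and -1.12 with wider changes in its p.

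The summed level of 18 proliferation genes, among them Mki67, Top2a and the Mcm helicase subunits, was 3859 to 4654 CPM in WT, 3806 to 5223 CPM in δKO and 2852 to 3368 CPM in TKO libraries, so that TKO lay below both, as in Cdk6. Within genotypes the sums followed Cdk6 in 1 of 3. In δKO they were 3806, 4281 and 5223 CPM and in TKO 3041, 3368 and 2852 CPM, both in the reverse of the order of Cdk6. In WT, at 4654, 3915 and 3859 CPM, they had the order of Cdk6. By fitted log2 fold change 17 of the 18 were negative in TKO against each control, with medians of -0.39 against WT and -0.66 against δKO, where the medians of all genes tested were 0.02 and -0.06. EdgeR called none of them, with 4 and 6 at an unadjusted p under 0.05 (4.19% and 10.2% of all genes), and DESeq2 on all libraries called 0 and 1 (0.649% and 3.06%). DESeq2 on the groups compared called 1, Aurkb, lower in TKO than in WT (adjusted p = 0.000821) and 0 against δKO (3.04% and 1.51% of all genes). Without overlap, 9 of the 18 were lower in TKO than in WT and 6 lower than in δKO, against 7.47% and 4.74% of all genes, and none was higher. Against WT, Mki67 and Top2a had log2 fold changes of -0.66 and -0.49, whereas Pcna and Mcm2 to Mcm7 lay between -0.27 and 0.09. Of Pcna and these Mcm genes, only Mcm5 was lower than in WT without overlap. Aurkb and Ccnb2, both mitotic genes, had the smallest p against WT (log2 fold changes -1.19 and -0.98; edgeR adjusted p = 1.00 for both). Ccnb1 and Mki67 had the smallest against δKO (-1.43 and -0.74; edgeR adjusted p = 0.465 for both, and DESeq2 on all libraries 0.0234 and 0.0379). The part of cycling cells, or of Cd48+ cells, in the Cdk6 values was not tested.

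**Figure D3:**
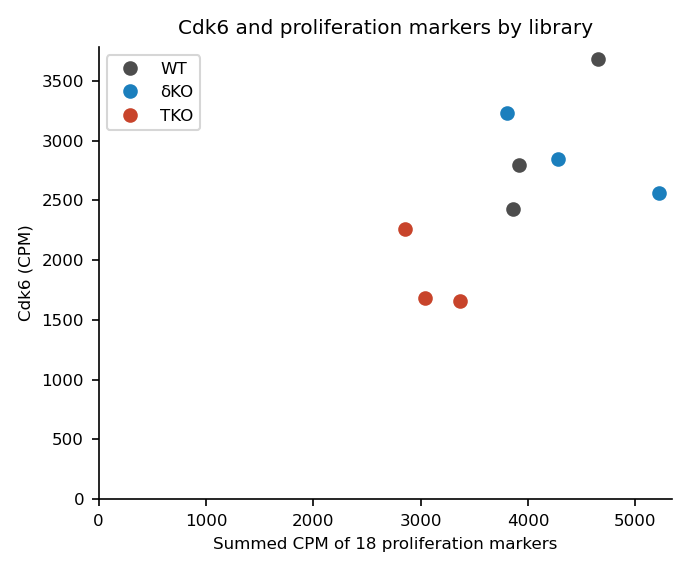
Cdk6 in CPM (y axis) against the summed CPM of 18 proliferation markers (x axis), 1 point per library, both axes from 0. The 3 TKO libraries (red) lie lowest on both axes, at 2852 to 3368 CPM of markers and 1658 to 2257 CPM of Cdk6.

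Cdk4, chr10:127063534-127067920 on the + strand, is bound by the same cyclins and inhibitors as Cdk6. It was at 103, 139 and 128 CPM in WT, 105, 124 and 78.3 CPM in δKO and 131, 191 and 111 CPM in TKO libraries. TKO replicate 2 was the highest of the 9 and the genotypes overlapped. The log2 fold change was 0.23 against WT (SE 0.28; edgeR adjusted p = 1.00) and 0.50 against δKO (SE 0.28; edgeR adjusted p = 0.560). Without TKO replicate 2 these were -0.032 and 0.24. Rb1, chr14:73183673-73325822 on the - strand, encodes the shared substrate of both kinases. Its levels were 40.8, 42.9 and 48.2 CPM in WT, 24.8, 34.5 and 59.4 CPM in δKO and 34.7, 49.4 and 35.7 CPM in TKO libraries. The δKO libraries again enclosed all others. Its log2 fold change was -0.14 against WT (SE 0.36, interval -0.93 to 0.65; edgeR adjusted p = 1.00) and 0.01 against δKO (edgeR adjusted p = 0.992).

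**Figure D4:**
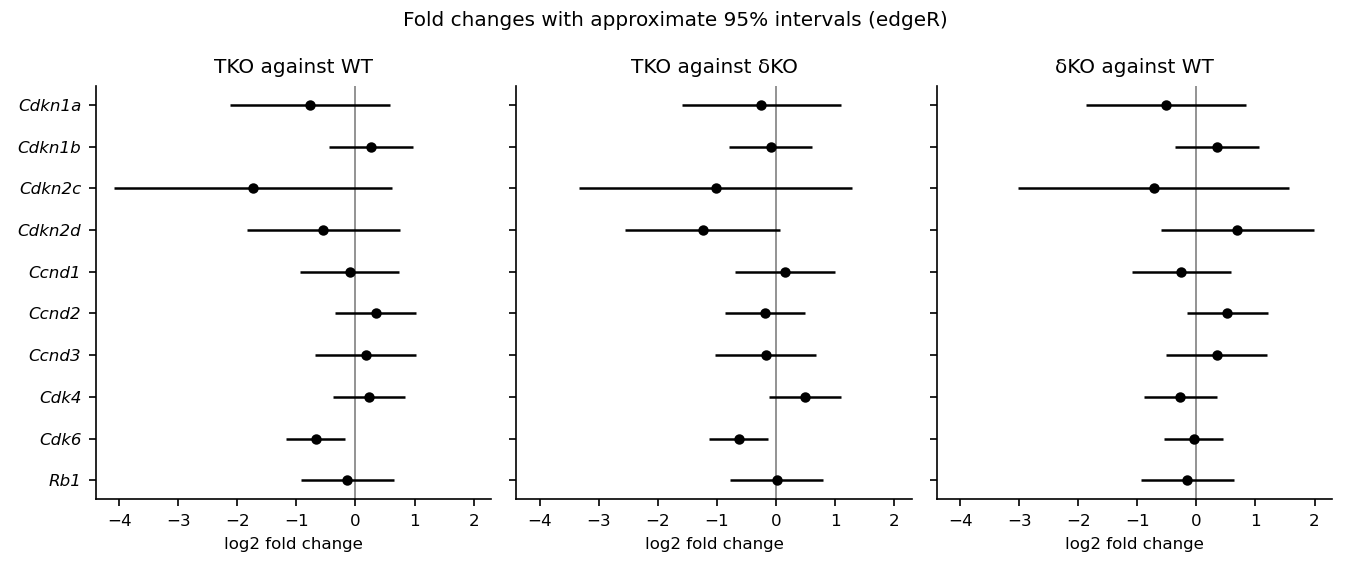
Log2 fold change of each gene (points) with its approximate 95% interval (lines) in the 3 comparisons, from the edgeR fit to all 9 libraries. Only the Cdk6 intervals in the comparisons of TKO with WT and with δKO lie wholly on one side of 0, before adjustment for all genes.

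Levels of different genes were compared as CPM per kb of exon. By that measure Cdk6 led in every genotype, with WT at 212 ± 46.1, δKO at 206 ± 24.0 and TKO at 133 ± 24.2 (SD, n = 3), without overlap with the next gene. Cdk4 and Ccnd2 followed and overlapped each other, at 38.0 ± 5.62 and 34.5 ± 8.59 in WT and 44.4 ± 12.9 and 43.8 ± 5.31 in TKO. Cdkn2d, Ccnd3, Cdkn1a and Cdkn1b came next in WT with overlapping levels, from 11.8 to 18.6 on average. In δKO the Cdkn2d level of 30.1 ± 19.4 overlapped with that of Cdk4, and in TKO the Cdkn1a level of 7.29 ± 3.36 overlapped with that of Ccnd1 (SD, n = 3). Ccnd1 and Rb1 lay between 6.58 and 7.90 in all genotypes, and Cdkn2c was last in each, at 4.09 ± 0.44 in WT and 1.22 ± 0.40 in TKO.

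Within families, Ccnd2 made up 51.5% to 74.7% of the summed D-type cyclin level per kb in single libraries, Ccnd3 13.4% to 34.8% and Ccnd1 7.20% to 15.7%. Of Cdk4 and Cdk6 together, Cdk6 took 81.5% to 89.2% in WT, 84.2% to 88.4% in δKO and 74.9%, 66.8% and 82.6% in the TKO libraries, so that TKO replicates 1 and 2 were below every other library and TKO replicate 3 was within the WT range. With the same whole-gene counts divided by kb of coding sequence instead, its share was 94.6% to 97.1% in WT and 89.0% to 94.99% in TKO. Reads of the long untranslated ends of Cdk6 stay in these counts while their length does not, which raises its share. Cdkn2d was 35.8% to 62.3% of the summed inhibitors per kb of exon in 8 libraries and 15.7% in TKO replicate 1, where Cdkn1b was 59.1%.

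**Figure D5:**
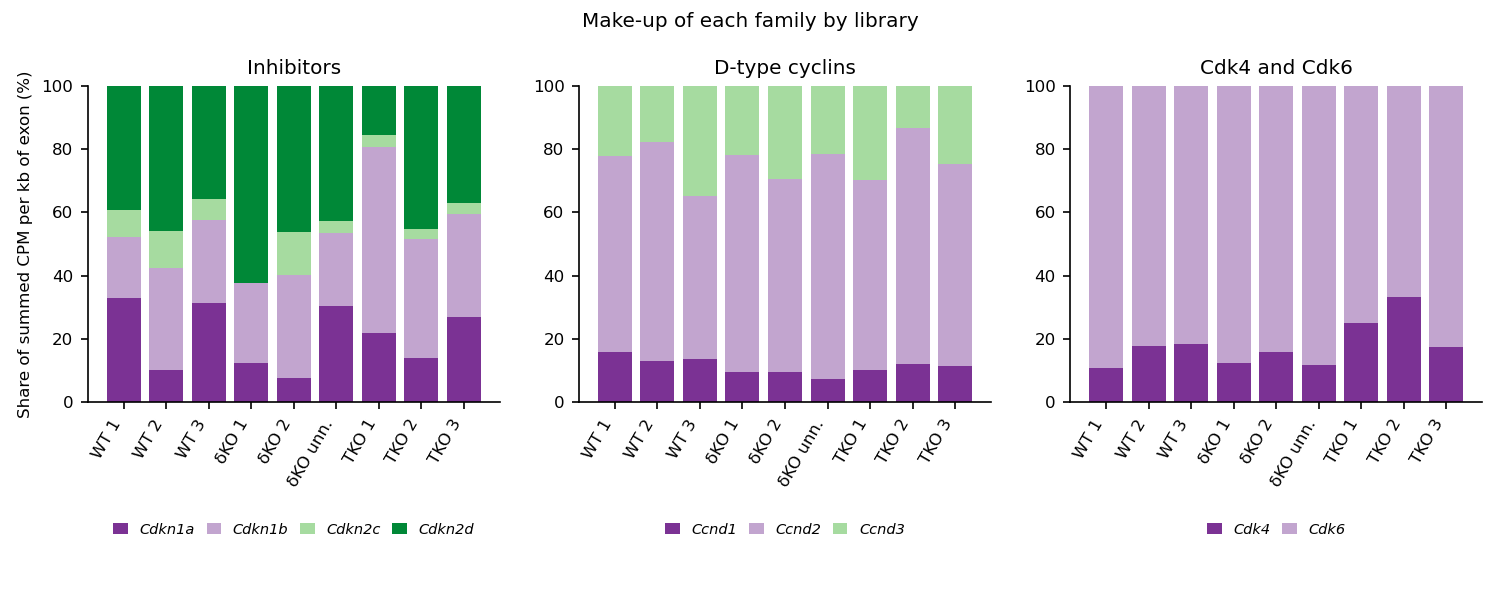
Share of each gene (y axis, %) in the summed CPM per kb of exon of its family, with 1 bar per library, for the inhibitors (left), the D-type cyclins (middle) and Cdk4 with Cdk6 (right). The Cdk4 part of the right panel is largest in TKO replicates 1 and 2, and TKO replicate 1 has the smallest Cdkn2d part of the left panel.

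Over the whole set, TKO against WT gave 4 positive and 6 negative log2 fold changes with a median of -0.12, where all genes had a median of 0.02. By edgeR 0 of 10 were called and 1 gene of all tested was (0.00549%). Before adjustment, 1 of the 10, Cdk6, had a p under 0.05, against 4.19% of all genes. No member was higher without overlap, against 6.88% of genes, and 2, Cdk6 and Cdkn2c, were lower without overlap, against 7.47%. DESeq2 called 0 of 10 with all libraries (0.649% of genes) and 1, Cdkn2c, with the groups compared (3.04%).

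In TKO against δKO, 3 members were positive and 7 negative with a median log2 fold change of -0.18, against -0.06 for all genes. EdgeR called 0 of the members and 0% of all genes, and 1 member, Cdk6, had an unadjusted p under 0.05, against 10.2% of genes. None was higher without overlap (6.98% of genes were), and Cdk6 alone was lower (4.74%). DESeq2 called 0 with all libraries, where it called 3.06% of genes, and 0 with the groups compared, where it called 1.51%.

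δKO against WT gave 4 positive and 6 negative log2 fold changes with a median of -0.10, against 0.05 for all genes, and the largest in size was -0.72 for Cdkn2c (SE 1.05; edgeR adjusted p = 0.907), which was -2.43 without δKO replicate 2, -0.15 without δKO replicate 1 and -0.44 without the unnumbered library. No member was called by edgeR (0.00549% of genes were), none had an unadjusted p under 0.05 (7.01%), and none was higher (4.13%) or lower (7.39%) without overlap. DESeq2 called 0 of the 10 with all libraries and with the groups compared, against 1.03% and 0.988% of genes.

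The spread among δKO libraries bears on these counts. δKO replicate 1 held the highest value of the 9 libraries for 5 members (Cdkn1b, Cdkn2d, Ccnd1, Ccnd2 and Ccnd3) and the lowest for 2 (Cdkn2c and Rb1). It was the highest library for 23.7% of all genes tested and the lowest for 27.1%, and it had the fewest genes detected. TKO replicate 3 and WT replicate 2 were at the extreme for 0 members.

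Of the other inhibitors, Cdkn2a and Cdkn2b, which encode the remaining INK4 proteins, had 0 counts in every library, which allows up to 3 counts, or 0.0504 to 0.12 CPM. Cdkn1c, which encodes p57 and is known to hold HSCs in quiescence, was at 0.558 to 3.94 CPM in 8 libraries and at 26.6 CPM in TKO replicate 2. Its log2 fold change of TKO against WT was 2.62 (SE 1.18; edgeR adjusted p = 1.00). Cdkn3, a CDK2 phosphatase, was at 4.26 to 10.3 CPM in TKO, 3.83 to 11.8 CPM in δKO and 12.7 to 28.1 CPM in WT. Both TKO and δKO thus lay below WT without overlap, as 7.47% and 7.39% of all genes did in the respective comparison. For Cdkn3, the log2 fold changes follow. The log2 fold changes were -1.39 for TKO against WT, -1.21 for δKO against WT and -0.19 for TKO against δKO (edgeR adjusted p = 1.00, 0.699 and 0.940).

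Of the 12 pocket-protein, E2F and DP genes downstream of cyclin D, 6 had positive and 6 negative log2 fold changes in TKO against WT and likewise against δKO. The medians were 0.13 and -0.10, where those of all genes were 0.02 and -0.06. EdgeR called none, with 1 and 3 at an unadjusted p under 0.05 (4.19% and 10.2% of all genes), and DESeq2 on all libraries called 0 and 1 (0.649% and 3.06% of all genes). Against WT the smallest p were those of E2f8 and E2f7, the atypical E2Fs that repress transcription. E2f8 was at 71.8 ± 10.05 CPM in TKO and 129 ± 33.9 CPM in WT (SD, n = 3; log2 fold change -0.85), and E2f7 had a log2 fold change of 0.75 (edgeR adjusted p = 1.00 for both). Against δKO, Tfdp1, which encodes the E2F partner DP1, was at 208 ± 33.1 against 525 ± 238 CPM (SD, n = 3), a log2 fold change of -1.33 with an edgeR adjusted p of 0.465 and 0.027 by DESeq2 on all libraries. Rbl2, which encodes the pocket protein p130, had a log2 fold change of -0.67 against δKO (edgeR adjusted p = 0.465). For both it was δKO that stood apart, above WT without overlap, as were 4.13% of all genes and 2 of these 12. Tfdp1 was at 230.1 ± 35.3 CPM in WT, with a log2 fold change of -0.14 for TKO against WT and 1.19 for δKO against WT (SD, n = 3; edgeR adjusted p = 1.00 and 0.699). Rbl2 was at 97.7 CPM in WT, 148 CPM in δKO and 92.9 CPM in TKO on average.

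In the 7 genes of cyclin E-CDK2 and CDK activation 6 were negative against WT and 4 against δKO. Their median log2 fold changes were -0.05 and -0.28, where those of all genes were 0.02 and -0.06. None was called by edgeR (1 and 0 of all genes tested were) or DESeq2 (DESeq2 called 0.649% and 3.06% of all genes on all libraries and 3.04% and 1.51% on the groups compared), with 0 and 1 at an unadjusted p under 0.05 (4.19% and 10.2% of all genes). Cyclin E1 (Ccne1) and the phosphatase Cdc25a had the smallest p against WT, with log2 fold changes of -1.14 and -0.33 (edgeR adjusted p = 1.00 for both). Cdc25a, at -0.84, and Ccne2, at -0.78, had the smallest against δKO (edgeR adjusted p = 0.465 and 0.666). Of 9 genes for the turnover of p27 and the cyclins, 6 were negative against WT and 8 against δKO, with medians of -0.07 and -0.29 (0.02 and -0.06 for all genes). None of the 9 was called by edgeR or DESeq2 or had an unadjusted p under 0.05 (4.19% and 10.2% of all genes had). Of all genes, edgeR called 0.00549% and 0%, DESeq2 on all libraries 0.649% and 3.06% and DESeq2 on the groups compared 3.04% and 1.51%. Cks1b and Skp2, parts of the ligase that marks p27, had log2 fold changes of -0.42 against WT and -0.46 against δKO, respectively (edgeR adjusted p = 1.00 and 0.677). Cul4b had -0.29 against WT, and Ambra1, which directs the degradation of D-type cyclins, -0.55 against δKO (edgeR adjusted p = 1.00 and 0.595).

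Of 19 upstream regulators, 15 were positive against WT and 10 against δKO (51.2% and 47.2% of all genes were). Their median log2 fold changes were 0.26 and 0.06, where those of all genes were 0.02 and -0.06. Without overlap, 5 were higher in TKO than in WT and 2 higher than in δKO (6.88% and 6.98% of all genes), and none was lower. EdgeR called none, with 2 and 1 at an unadjusted p under 0.05 (4.19% and 10.2% of all genes), and DESeq2 on all libraries called none (0.649% and 3.06% of all genes). DESeq2 on the groups compared called 1, Mycn, higher in TKO than in WT (adjusted p = 0.00317) and 0 against δKO (3.04% and 1.51% of all genes). Mycn, a MYC family factor of the kind that binds E-boxes, was at 83.1, 85.2 and 47.9 CPM in TKO, 16.9, 34.7 and 15.0 CPM in WT and 67.5, 42.5 and 11.5 CPM in δKO libraries. TKO values were all above WT, as in 6.88% of all genes, and overlapped with δKO. Its log2 fold change against WT was 1.70 (SE 0.57; edgeR adjusted p = 1.00). Foxo1, at 31.3 ± 3.23 CPM in TKO and 81.6 ± 90.9 CPM in δKO (SD, n = 3), had a log2 fold change of -1.38 (edgeR adjusted p = 0.486). Its δKO values were 187, 32.5 and 25.9 CPM, so that replicate 1 stood far above the others. Tgfbr2, a receptor of TGF-beta, had 0.53 against δKO (edgeR adjusted p = 0.563).

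The genes whose log2 CPM over the 9 libraries was most like that of Cdkn2d, the inhibitor with the highest mean CPM per kb of exon over all 9 libraries, out of 10775 genes averaging 5 CPM or more, were Pdzd8, Stx8 and Lysmd3 (Pearson r = 0.959, 0.955 and 0.953). For Ccnd2 they were Ubxn2b, Nop58 and Slc35e3 (r = 0.947, 0.945 and 0.944). Within TKO, Cdkn1b had the highest mean of the inhibitors per kb of exon, and in each genotype it had the highest mean share per kb of coding sequence. The points share library depth and composition, and δKO replicate 1 was an extreme point for both members.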

How the data were processed

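The genes and lists were chosen with earlier results of these data known. The deposited counts were raw reads per gene made by the authors, who aligned to mm10 and counted per gene with STAR 2.5.1b; the submitters' processing notes also name Trim Galore 0.3.7, FastQC 0.11.4 and DESeq2. The strand setting and how the runs of a library were joined are not given in the sources used here, and the amplification kit does not mark strand. The deposited normalized values (a signal) were made by the authors and, in the 8 columns whose raw column has the same genotype and number, equalled the counts divided by 1 constant per library; the remaining column was not checked. Among the raw columns, 1 of δKO carried a number that the labels do not give and was used as an unnumbered δKO library; every normalized column matched a label. Identifiers were named from GENCODE vM21, which held 47224 of 47643 without the version.

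Counts were tested with edgeR 4.0.16 (TMM, filterByExpr at 10 counts, 18205 genes kept, 1 mean per genotype, quasi-likelihood, Benjamini-Hochberg over all genes kept). A call needed an adjusted p under 0.05 and over 2-fold. CPM used TMM library sizes. Intervals are the log2 fold change with its SE and the fit's degrees of freedom. Alternatives used DESeq2 1.42.0, limma 3.58.1 with voom or with the normalized values as log2(value + 1), other scaling and filters, genes detected per library as a covariate, and each library left out. Depth, 31300343 to 60386097 counts per library, gave every member except Cdkn2c at least 280 counts in each library; limits from 0 counts cover counting error only. Named genes of each list were the 2 with the smallest p in each comparison of TKO, except for an item that is not reported here. For the genes most alike, Pearson r was taken with the inhibitor and the D-type cyclin of highest mean CPM per kb of exon. Same-numbered libraries had correlations of their deviations from -0.04 to 0.08, and libraries of different genotypes without the same number from -0.09 to 0.12. The numbers thus showed no sign of pairing, though this check cannot exclude it. Replicates differed by far more than sampling noise (chi-square per gene of 128 and more), and none was counted as a copy.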

Additional observations from a re-analysis of the deposited data

How the results depend on the processing

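Of 537 values of the members recomputed under the alternatives, 37 changed sign and 1 moved past the threshold; 18 of the 30 member comparisons kept their direction in all. DESeq2 on the groups compared called 1 member in TKO against WT (Cdkn2c), where the edgeR fit and every other alternative called 0; the other 2 comparisons had 0 called in every alternative. Changes of sign were mostly in TKO against δKO. In that comparison Rb1 was -0.0053 with RLE factors, -0.0047 and -0.0045 with DESeq2 on all libraries and on the groups compared and -0.063 with voom; Cdkn1b was 0.063 with upper-quartile factors, 0.00035 with at least 10 counts in every library and 0.0071 with voom; Ccnd3 was 0.0015 with upper-quartile factors and 0.034 with voom; Cdkn1a was 0.31 with genes detected as a covariate and 0.44 with voom; Ccnd2 was 0.14 and 0.087 with the same; Cdkn2c was 0.39 with the normalized values. Cdk6 in δKO against WT was 0.0049 with the covariate. Upper-quartile factors moved the median of all genes by 0.14 in TKO against δKO and by -0.15 in δKO against WT.

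With the replicate number as a block on the 8 numbered libraries, no member was called, Cdk6 in TKO against WT was -0.67, Cdkn1a in TKO against δKO was 0.018 and Cdk6 in δKO against WT 0.046. The same libraries without the block, a fit added after seeing the data, gave 0.089 and 0.032, and for Ccnd1 -0.11 in TKO against δKO and 0.010 in δKO against WT. The numbers showed no sign of pairing the samples.

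Leaving out 1 library at a time changed signs 16 times, 5 of them without δKO replicate 1. In TKO against δKO these ranges were -0.34 to 0.24 for Cdkn1b, -0.39 to 0.25 for Ccnd2, -0.61 to 0.12 for Ccnd3, -0.24 to 0.43 for Rb1, -1.60 to 0.69 for Cdkn2c (the highest without δKO replicate 2), -0.69 to 0.09 for Cdkn1a and -0.11 to 0.66 for Ccnd1. In δKO against WT they were -0.17 to 0.14 for Cdk6, -0.57 to 0.095 for Rb1 and -0.76 to 0.01 for Ccnd1. In TKO against WT they were -0.27 to 0.47 for Ccnd3 and -0.032 to 0.39 for Cdk4. Among values given in the text, ranges that kept their sign but reached over 1.5 times above or below the reported value were, in TKO against WT, -1.20 to -0.48 for Cdkn1a, 0.14 to 0.39 for Cdkn1b, -0.998 to -0.097 for Cdkn2d, -0.17 to -0.036 for Ccnd1, 0.19 to 0.55 for Ccnd2 and -0.32 to -0.050 for Rb1, in TKO against δKO -1.69 to -0.58 for Cdkn2d and 0.24 to 0.66 for Cdk4, and in δKO against WT -2.43 to -0.15 for Cdkn2c.
At least 10 counts in every library left no value for Cdkn2c. With 3 libraries per genotype the approximate 95% interval in TKO against WT was -4.09 to 0.61 for Cdkn2c and -0.39 to 0.84 for Cdk4. The causes of these shifts were not tested.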

Other observations

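Several of the 10 genes share exon bases with a gene on the other strand, whose reads cannot be told apart from theirs without strand. LTO1 shares 1100 bases with Ccnd1 (23.4% of its exon length) and was at 3.59 to 16.7 CPM over the 9 libraries. Tspan31 shares 641 bases with Cdk4 (19.7%) and was highest, at 29.1 CPM, in TKO replicate 2, the library in which Cdk4 was also highest. Rcbtb2 shares 488 bases with Rb1 (8.11%) and was at 20.3 to 81.3 CPM, with the highest value in δKO replicate 1, where Rb1 was lowest. For Cdk6 the overlap was 368 of 13989 exon bases (2.63%) with the antisense gene Gm17590, which was at 7.37 to 34.9 CPM beside at least 1658 CPM of Cdk6.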
